A study of Mus musculus with 4 samples.

Results

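The genes described here are 38 genes of the adipocyte's fat cycle, from the transcription factors that set the fat cell program through fatty acid synthesis, triglyceride assembly, droplet coating and fatty acid uptake to lipolysis. The rule that chose them is a list of gene symbols and uses no measured value, although the list was drawn up with earlier results of these data known. Of the 38, 36 had a probe set assigned to 1 gene, and 35 passed the filter on low signal, among 18820 genes with a probe set and 11292 that passed. Acsl1 and Adrb3 had no probe set of their own here, so their expression was not analysed. Elovl3, an elongase best known from brown fat, lay below the filter, at 3.79 on KO array 1, 4.33 on KO array 2, 4.70 on WT high-fat and 4.19 on WT low-fat.

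Expression was read in epididymal fat, a visceral depot of male mice, in 3 groups. CD1d-null (CD1d-/-) mice fed the low-fat diet, abbreviated KO, gave 2 arrays. Wild type (WT) mice gave 1 array after the high-fat diet and 1 after the low-fat diet, called WT high-fat and WT low-fat. CD1d presents lipid antigens to natural killer T cells, which depend on it. The low-fat diet held 10 kcal% fat and the high-fat diet 45 kcal% fat, and both began at 10 to 11 weeks of age and lasted 18 to 19 weeks. All mice were on the C57BL/6J background, with 10 to 12 backcrosses for the null allele, and each array carried RNA pooled from 4 to 6 mice. The labels do not state whether KO array 1 and KO array 2 held different mice, and the spread behind every p-value is that of these 2 arrays alone.

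Fat cells make fatty acids from acetyl-CoA in the cytosol, join them to glycerol as triglyceride and store that in a droplet coated by perilipins. They also take fatty acids from circulating lipoproteins, which lipoprotein lipase splits at the capillary wall. In fasting or under adrenergic drive, lipases on the droplet release fatty acids and glycerol again, while insulin favours synthesis and restrains release.

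A level below is a log2 intensity, which can be compared between arrays for 1 gene but not between genes. A difference is on the log2 scale, and a gene is called apart where 2 arrays differ by at least 1.5-fold, a difference of about 0.58 or more in size. In pooled bulk tissue, fewer cells of a type and less RNA per cell cannot be told apart. The labelled tissue carried its defining marker, since Adipoq, the adipocyte hormone adiponectin, was at 13.19 on KO array 1, 13.03 on KO array 2, 13.09 on WT high-fat and 13.18 on WT low-fat. Cd1d1, the disrupted gene, was at 3.74 on KO array 1, 3.98 on KO array 2, 11.80 on WT high-fat and 11.80 on WT low-fat, a KO difference of −7.95 (SE 0.32, limma adjusted p = 0.00646). The arrays did not sort by genotype. Over the tested genes, KO array 2, labelled low-fat, had a median absolute difference of 0.12 from WT high-fat, 0.20 from WT low-fat and 0.29 from KO array 1, while KO array 1 was 0.21 from WT low-fat. Of the tested genes, 19.3% were apart between the KO arrays and 2.88% between KO array 2 and WT high-fat. The groups are kept as labelled, and whether the diet label of KO array 2 holds was not tested. Every KO value below rests on that label, and the KO comparison is therefore also given for each KO array alone. The median gene lay at −0.17 for KO array 1, −0.02 for KO array 2 and 0.05 for WT high-fat, each minus WT low-fat.

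The 4 promoters below belong to the members that were at least 1.5-fold apart, in the same direction, both between the diets and between the KO arrays, and that have an entry in the RefSeq promoter table. Scd2 and Gpihbp1 met the same criterion and are named only. Each line gives the 250 bases before the transcript start, 5′ to 3′, in build GRCm38.p6 from RefSeq. Plin2 and Agpat2 were higher, and Mogat1 and G0s2 lower, on both KO array 2 and WT high-fat. The windows are chr4:86670060-86670309 on the minus strand, chr2:26604418-26604667 on the minus strand, chr1:78510810-78511059 on the plus strand and chr1:193273189-193273438 on the minus strand. Capitals mark any match, on either strand, to the motifs searched.
Plin2: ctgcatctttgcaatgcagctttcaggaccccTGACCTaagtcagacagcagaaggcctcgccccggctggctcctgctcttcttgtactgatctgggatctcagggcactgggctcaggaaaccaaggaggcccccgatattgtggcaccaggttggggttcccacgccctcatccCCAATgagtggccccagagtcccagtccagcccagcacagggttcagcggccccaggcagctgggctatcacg
Agpat2: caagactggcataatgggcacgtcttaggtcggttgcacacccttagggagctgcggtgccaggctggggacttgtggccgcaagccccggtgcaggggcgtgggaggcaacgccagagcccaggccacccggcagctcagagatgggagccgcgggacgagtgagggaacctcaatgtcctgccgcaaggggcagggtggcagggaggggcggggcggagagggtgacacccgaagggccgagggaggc
Mogat1: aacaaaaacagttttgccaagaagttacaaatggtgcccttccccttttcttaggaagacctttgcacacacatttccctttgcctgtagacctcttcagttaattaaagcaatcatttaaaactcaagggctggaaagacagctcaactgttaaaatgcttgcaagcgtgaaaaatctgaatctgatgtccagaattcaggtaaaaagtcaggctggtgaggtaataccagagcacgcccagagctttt
G0s2: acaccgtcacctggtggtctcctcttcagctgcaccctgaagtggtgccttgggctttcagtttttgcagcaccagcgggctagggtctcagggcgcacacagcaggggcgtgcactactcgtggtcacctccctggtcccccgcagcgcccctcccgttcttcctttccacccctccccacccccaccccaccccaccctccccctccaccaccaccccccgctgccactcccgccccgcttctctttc
The motifs were AGGTCA (nuclear receptor half-site), CACGTG (E-box), TCACNCCAC (sterol regulatory element), TTGCGCAA (C/EBP palindrome), TGACGTCA (cyclic AMP response element), CCAAT and TATAAA. No match overlapped another in these windows. The Plin2 window held 1 half-site, read as TGACCT and starting at position −218, and 1 CCAAT box at −73, counted back from the transcript start. The other windows held no match. Of 32851 promoter windows of this length, 14.0% held AGGTCA, 6.0% CACGTG, 1.1% TCACNCCAC, 0.2% TTGCGCAA, 1.5% TGACGTCA, 33.8% CCAAT and 12.4% TATAAA. Of the 28 members with an entry, 9 held AGGTCA, 3 CACGTG, 2 TCACNCCAC, 0 TTGCGCAA, 1 TGACGTCA, 11 CCAAT and 2 TATAAA in at least 1 window. Acsl1, which has no level here, is among those with TCACNCCAC and CCAAT. The background share is over single windows, while members are counted as genes, whatever their number of windows. The member counts therefore have no matching background, and enrichment was not tested.

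The first comparison asks whether these genes differed between CD1d-null and wild type fat under low-fat feeding. No member passed the test. In limma over all 11292 genes, 0 of 35 members had an adjusted p below the threshold of 0.05, with an adjusted p = 1 for each, and 0 of 35 had an unadjusted p under 0.05. Over all genes the test called 5, or 0.0443%, all lower in KO, and an unadjusted p under 0.05 was reached by 41 genes on the higher and 51 on the lower side. The 5 were Cd1d1 and 4 markers of the epididymis. Those 4 were high on WT low-fat and low on WT high-fat as well as on both KO arrays. WT low-fat is the reference of every KO and diet difference here. The lowest unadjusted p among the members was 0.103, for Mogat1. The test took its spread from the KO pair, and the median half-width of the members' 95% confidence intervals was 0.81, so differences smaller than that could not be told from 0 for many members.

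By size, 0 of 35 members were at least 1.5-fold higher on both KO arrays, where 0.584% of all tested genes were, and 0 of 35 were at least 1.5-fold lower on both, where 0.77% were. The KO arrays gave different counts when taken alone. On KO array 1, 0 of 35 members were at least 1.5-fold from the WT low-fat array, against 6.95% of all tested genes. On KO array 2, 7 of 35 were, 4 higher and 3 lower, against 10.1% of all tested genes. Those 7 were Scd2, Agpat2, Dgat2 and Plin2 on the higher side and Mogat1, Acaca and G0s2 on the lower side. Only Acaca and Mogat1 reached the smaller size of 1.3-fold on both KO arrays, and both were lower. The share of all tested genes at that smaller size is not given here.

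Mogat1 encodes a monoacylglycerol acyltransferase, and it was at 8.23 on KO array 1, 7.38 on KO array 2, 7.70 on WT high-fat and 8.65 on WT low-fat. Both KO levels lay below that of the low-fat wild type, and so did the high-fat level. The mean KO difference was −0.85 (SE 0.44, 95% confidence interval −1.93 to 0.24, n = 2 KO arrays and 1 wild type array, limma adjusted p = 1). Acaca encodes acetyl-CoA carboxylase 1, which commits acetyl-CoA to fatty acid synthesis, and it was at 10.88 on KO array 1, 10.43 on KO array 2, 10.55 on WT high-fat and 11.31 on WT low-fat. Its mean KO difference was −0.65 (SE 0.35, 95% confidence interval −1.52 to 0.21, adjusted p = 1). The largest positive mean KO difference among the members was that of Scd2, 0.65 (SE 0.65, 95% confidence interval −0.95 to 2.26, adjusted p = 1), and it came from KO array 2 alone.

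**Figure D1:**
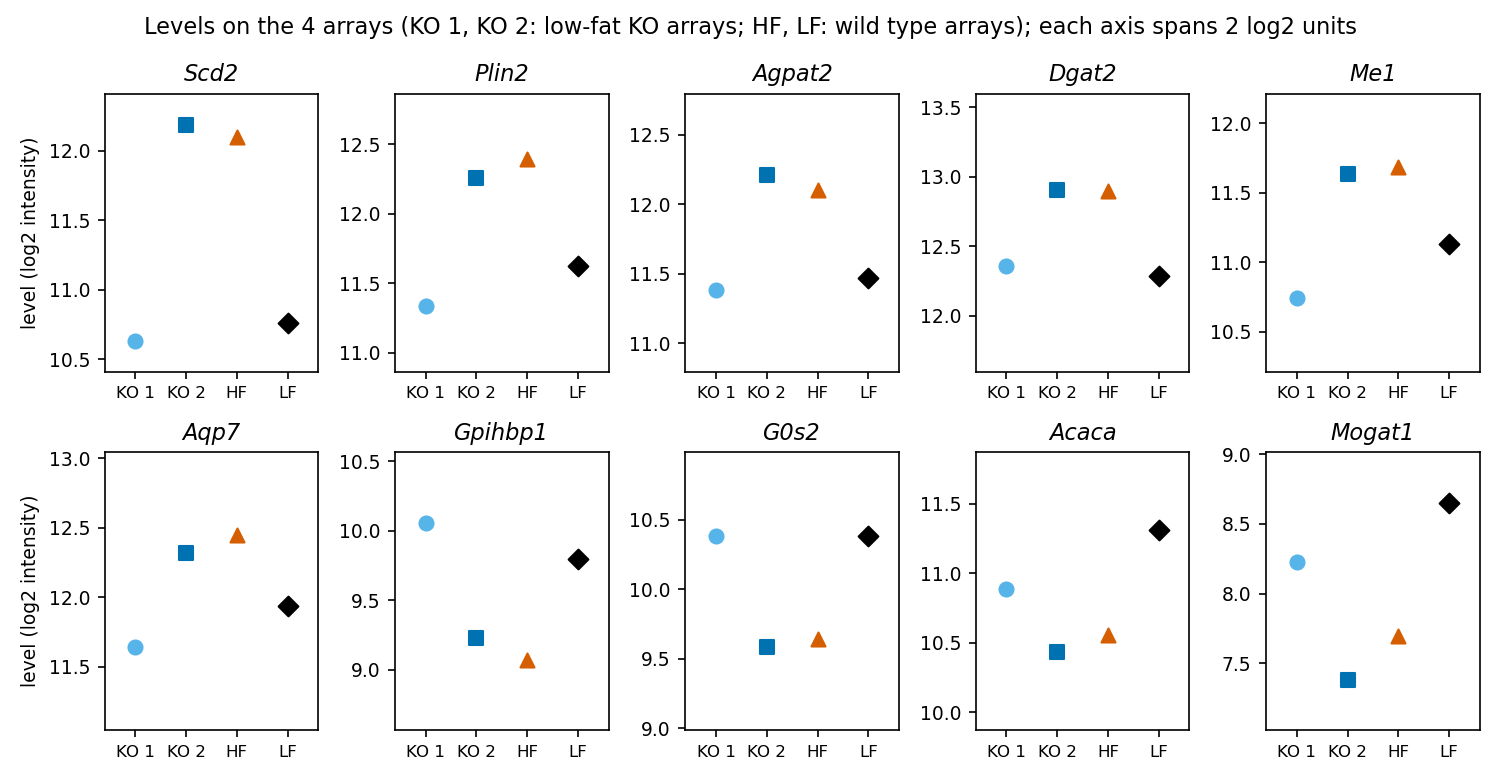
Levels (log2 intensity, vertical) of the 10 members at least 1.5-fold apart between the diets or between the KO arrays. Each panel shows 1 gene on KO arrays 1 and 2, WT high-fat and WT low-fat. In all 10 panels KO array 2 lies nearer to the WT high-fat array than KO array 1 does.

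The second comparison asks how the members differed between the diets in wild type tissue. It has 1 array for each diet and no test. On WT high-fat 4 of 35 members (11.4%) were at least 1.5-fold higher, where 7.72% of all tested genes were, and 4 of 35 (11.4%) were at least 1.5-fold lower, where 3.82% were. The higher members were Scd2, Plin2, Agpat2 and Dgat2, and the lower ones Mogat1, Acaca, G0s2 and Gpihbp1. The members' median difference was 0.04, beside 0.05 over all tested genes. Macrophage markers were higher beside both this difference and the next, with list medians of 1.05 between the diets and 1.14 within the KO pair, and their part in the members' differences was not tested. The third comparison sets the KO arrays, which carry the same genotype and diet labels, against each other. On KO array 2, 5 of 35 members (14.3%) were at least 1.5-fold higher, beside 14.8% of all tested genes, so the share of members was close to that background. On the lower side were 3 of 35 (8.57%), beside 4.45%. The members' median difference was 0.14, the same as over all tested genes.

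None of the 5 transcription factors of the fat cell program was at least 1.5-fold apart in any comparison. Their spans over the 4 arrays ran from 0.17 for Pparg to 0.47 for Cebpb. Pparg, the nuclear receptor that drives adipocyte differentiation, was at 11.38 on KO array 1, 11.53 on KO array 2, 11.46 on WT high-fat and 11.56 on WT low-fat. Cebpa, which acts with it to keep the mature fat cell state, was at 11.16 on KO array 1, 10.87 on KO array 2, 10.89 on WT high-fat and 11.10 on WT low-fat. Their 4 levels spanned 0.17 for Pparg and 0.29 for Cebpa. Srebf1, which encodes the sterol regulatory factor SREBP-1 of lipogenic genes, was at 9.17 on KO array 1, 9.40 on KO array 2, 9.44 on WT high-fat and 9.35 on WT low-fat. Mlxipl encodes ChREBP, the carbohydrate-responsive factor, and was at 7.56 on KO array 1, 7.82 on KO array 2, 7.95 on WT high-fat and 7.67 on WT low-fat. Cebpb, an early factor of adipogenesis, was at 7.65 on KO array 1, 7.18 on KO array 2, 7.48 on WT high-fat and 7.44 on WT low-fat, a span of 0.47.

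The enzymes of fatty acid synthesis split. Fasn, fatty acid synthase, was at 12.50 on KO array 1, 12.60 on KO array 2, 12.64 on WT high-fat and 12.63 on WT low-fat, a span of 0.14. Scd1, the main stearoyl-CoA desaturase of adipose tissue, was at 13.93 on KO array 1, 13.86 on KO array 2, 13.81 on WT high-fat and 13.88 on WT low-fat, a span of 0.12. Neither gene was apart in any comparison. Scd2, a second desaturase of the same family with wide tissue expression, had the largest span of all members, 1.55. It was at 10.64 on KO array 1, 12.19 on KO array 2, 12.10 on WT high-fat and 10.76 on WT low-fat (probe set 10463355). Those levels fall into a high pair, KO array 2 and WT high-fat, and a low pair, KO array 1 and WT low-fat. Scd2 was 2.54-fold higher on the high-fat than on the low-fat wild type array and 2.94-fold higher on KO array 2 than on KO array 1. Fasn and Scd1 were among 13 members with mean levels above 12. The others were Dgat2, Plin1, Plin4, Cidec, Fabp4, Cd36, Lpl, Pnpla2, Lipe, Aqp7 and Pck1. Scd2 was among the 22 below. Above 12, 1 of 13 members (7.69%) was apart between the diets, Dgat2, and 1 between the KO arrays, Aqp7. Below 12, 7 of 22 (31.8%) were apart in each of these comparisons. Of all tested genes above 12, 7.05% were apart between the diets and 9.62% between the KO arrays. Of all tested genes below 12 the shares were 11.6% and 19.4%. The part of signal level in the small spans was not tested.

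Me1, the malic enzyme that supplies NADPH for fatty acid synthesis, showed the same pairs, at 10.74 on KO array 1, 11.63 on KO array 2, 11.68 on WT high-fat and 11.13 on WT low-fat. It was 1.85-fold higher on KO array 2 than on KO array 1, and just short of the size threshold between the diets, 1.46-fold higher on WT high-fat. Acaca ran the other way, 1.69-fold lower on WT high-fat. Its second probe set was lower there too, with a difference of −1.10, beside −0.76 for the first. Acly, which makes cytosolic acetyl-CoA from citrate, was at 9.18 on KO array 1, 9.50 on KO array 2, 9.57 on WT high-fat and 9.68 on WT low-fat, with both KO levels below both WT levels. Its mean KO difference of −0.34 (SE 0.33) was not past the test. After centring each array on its median, Acly on KO array 2 lay above WT high-fat, at −0.11 and −0.15 from WT low-fat. Elovl6, an elongase of saturated fatty acids, was at 8.53 on KO array 1, 8.80 on KO array 2, 9.11 on WT high-fat and 8.92 on WT low-fat. Both KO levels lay below both WT levels here as well, not past the test (difference −0.25, SE 0.32, limma adjusted p = 1).

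In triglyceride assembly, Agpat2, Dgat2 and Mogat1 were apart between the diets, and Gpam, Lpin1, Dgat1 and Pck1 were not. Agpat2 makes phosphatidic acid and is the gene mutated in a human congenital lipodystrophy. It was at 11.38 on KO array 1, 12.21 on KO array 2, 12.10 on WT high-fat and 11.47 on WT low-fat, 1.55-fold higher on WT high-fat and 1.77-fold higher on KO array 2 than on KO array 1. Dgat2, which adds the last acyl chain, was at 12.35 on KO array 1, 12.91 on KO array 2, 12.90 on WT high-fat and 12.29 on WT low-fat. Its high-fat difference of 0.61 was just past the size threshold and that between the KO arrays, 0.55, just short of it. Dgat1, which catalyses the same last step with an unrelated protein, was at 10.61 on KO array 1, 10.94 on KO array 2, 10.97 on WT high-fat and 10.78 on WT low-fat and was not apart. The first acyltransferase gene of the pathway, Gpam, had KO levels of 9.60 (array 1) and 9.71 (array 2). Its WT levels, 9.76 (high-fat) and 9.97 (low-fat), both lay above these (KO difference −0.32, SE 0.31, not past the test). That order did not hold after centring each array on its median. Relative to WT low-fat, Gpam was then at −0.22 (KO array 1) and −0.20 (KO array 2), both above WT high-fat at −0.26. Lpin1, a phosphatidate phosphatase gene, was at 11.18 on KO array 1, 11.25 on KO array 2, 11.06 on WT high-fat and 10.89 on WT low-fat. Lpin1 was the tested member of this group with both KO levels above both WT levels, with a mean KO difference of 0.32 (SE 0.31, 95% confidence interval −0.44 to 1.09, adjusted p = 1 in limma).

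Mogat1 belongs to the same group and had the opposite sign, 1.94-fold lower on WT high-fat than on WT low-fat and 1.80-fold lower on KO array 2 than on KO array 1. Pck1 supplies glycerol 3-phosphate for triglyceride by glyceroneogenesis, and it was at 12.79 on KO array 1, 12.29 on KO array 2, 12.41 on WT high-fat and 12.81 on WT low-fat. The Pck1 levels on KO array 2 and WT high-fat lay below the other pair, with differences of −0.49 between the KO arrays and −0.39 between the diets, both short of the size threshold.

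The droplet coat genes differed among themselves. Plin2, the perilipin found on droplets of most cell types and of lipid-loaded macrophages, was at 11.34 on KO array 1, 12.26 on KO array 2, 12.40 on WT high-fat and 11.62 on WT low-fat. It was 1.71-fold higher on WT high-fat and 1.90-fold higher on KO array 2 than on KO array 1, again a high pair and a low pair. Plin1, the perilipin of white fat cells that gates lipolysis, was at 12.25 on KO array 1, 12.48 on KO array 2, 12.54 on WT high-fat and 12.31 on WT low-fat. Plin4, another adipocyte perilipin, was at 12.79 on KO array 1, 12.46 on KO array 2, 12.53 on WT high-fat and 12.76 on WT low-fat. Cidec, which promotes the fusion of droplets into 1 large droplet, was at 13.33 on KO array 1, 13.28 on KO array 2, 13.24 on WT high-fat and 13.26 on WT low-fat, a span of 0.09. None of Plin1, Plin4 and Cidec was apart in any comparison. Under quantile normalization the small diet differences of Fasn and Cidec changed sign, and that of Scd1 became 0.

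Among the genes of fatty acid uptake, Fabp4, Cd36 and Lpl varied little. Fabp4, the fatty acid binding protein of fat cells and macrophages, was at 13.29 on KO array 1, 13.17 on KO array 2, 13.16 on WT high-fat and 13.27 on WT low-fat. Cd36, a fatty acid transporter, was at 13.11 on KO array 1, 13.27 on KO array 2, 13.15 on WT high-fat and 13.14 on WT low-fat. Lpl, lipoprotein lipase, was at 13.16 on KO array 1, 13.35 on KO array 2, 13.36 on WT high-fat and 13.29 on WT low-fat, with a span of 0.19. Gpihbp1 encodes the endothelial protein that anchors lipoprotein lipase in capillaries, and it was at 10.06 on KO array 1, 9.23 on KO array 2, 9.07 on WT high-fat and 9.80 on WT low-fat. It was 1.65-fold lower on WT high-fat and 1.78-fold lower on KO array 2 than on KO array 1. Of 8 markers of endothelium 0 were at least 1.5-fold apart in either comparison, with list medians of −0.04 and −0.04, and Kdr, an endothelial receptor gene, differed by −0.43 between the diets and −0.58 within the KO pair, where the highest, Vwf, differed by 0.15. Angptl4, a secreted inhibitor of lipoprotein lipase, was at 11.43 on KO array 1, 11.70 on KO array 2, 11.83 on WT high-fat and 11.65 on WT low-fat.

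Among the genes of lipolysis, the lipase genes Pnpla2 and Lipe varied little, and the lipase inhibitor gene G0s2 was apart in both comparisons. Pnpla2 encodes ATGL, which starts triglyceride breakdown, and it was at 12.90 on KO array 1, 12.86 on KO array 2, 12.85 on WT high-fat and 12.96 on WT low-fat. Lipe, hormone-sensitive lipase, was at 12.69 on KO array 1, 12.75 on KO array 2, 12.76 on WT high-fat and 12.70 on WT low-fat, the smallest span of all tested members, 0.07. Its second probe set was lower on WT high-fat, with a difference of −0.38, and on KO array 2, with −0.46, so its probe sets disagreed. Abhd5, the activator of ATGL, was at 10.10 on KO array 1, 9.98 on KO array 2, 10.01 on WT high-fat and 10.20 on WT low-fat. G0s2, the inhibitor of ATGL, was at 10.38 on KO array 1, 9.59 on KO array 2, 9.64 on WT high-fat and 10.39 on WT low-fat. Its levels form a pair at 10.4 and a pair at 9.6, 1.68-fold lower on WT high-fat and 1.73-fold lower on KO array 2.

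Mgll, which frees the last fatty acid, was at 11.54 on KO array 1, 12.02 on KO array 2, 12.05 on WT high-fat and 11.74 on WT low-fat. Aqp7, the channel through which fat cells release glycerol, was at 11.64 on KO array 1, 12.32 on KO array 2, 12.45 on WT high-fat and 11.93 on WT low-fat. Aqp7 was 1.60-fold higher on KO array 2 than on KO array 1 and short of the size threshold between the diets, 1.43-fold higher. Pnpla3, a lipogenic relative of ATGL, was at 9.92 on KO array 1, 10.35 on KO array 2, 10.28 on WT high-fat and 10.04 on WT low-fat and was not apart.

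**Figure D2:**
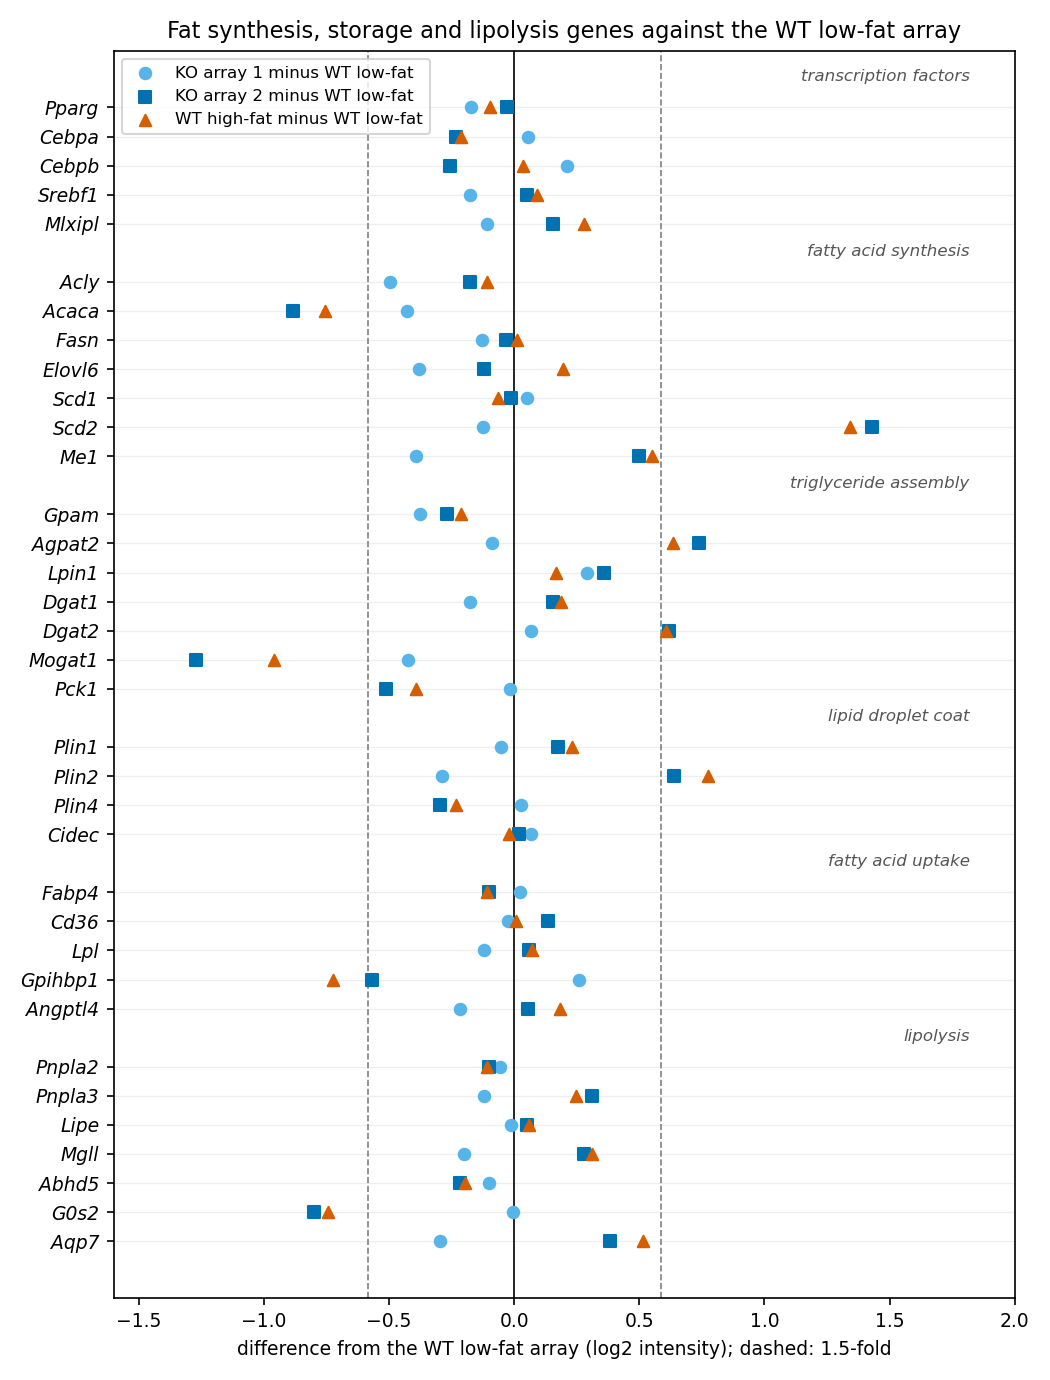
Difference of each tested member from the WT low-fat array (log2, horizontal), for KO array 1 (circles), KO array 2 (squares) and the WT high-fat array (triangles), with genes grouped by role. Dashed lines mark 1.5-fold. No circle lies outside them, while 7 squares and 8 triangles do.

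The diet difference and the difference within the KO pair have no array in common, and across the members they ran together. Of the 35 members, 31 had the same sign in both (88.6%), beside 77.2% of all tested genes, both as deposited. The members' count was 29 (82.9%) after quantile normalization and 28 (80%) after centring each array on its median. The share of all tested genes under those scalings is not given here, so these member counts have no matching background. Pearson's r across the 35 members was 0.95 and Spearman's rho 0.90, beside 0.52 and 0.70 across all 11292 genes. Without Scd2 the members' r was 0.93. These are descriptions across genes, which are not independent replicates, and all 4 arrays were normalized together. The set of all genes also holds markers of other tissues. Of 11 tested markers of the epididymis, 8 were opposite in the 2 differences and 1 was lower in both, at 1.5-fold. At least 1.5-fold higher in both comparisons were 3 of 35 members (8.57%), beside 6.02% of all tested genes, namely Scd2, Agpat2 and Plin2. At least 1.5-fold lower in both were 3 of 35 (8.57%), beside 1.93%, namely Mogat1, Gpihbp1 and G0s2. Opposite at that size were 0 of 35, beside 0.593%.

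Set directly against each other, KO array 2 and the WT high-fat array had 0 of 35 members at least 1.5-fold apart, beside 2.88% of all tested genes. The members' median absolute difference between them was 0.06. The largest belonged to Mogat1, 7.38 on KO array 2 and 7.70 on WT high-fat, and Elovl6, 8.80 and 9.11 on the same arrays. For KO array 1 and the WT low-fat array the members' median absolute difference was 0.125, and between the KO arrays it was 0.29.

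**Figure D3:**
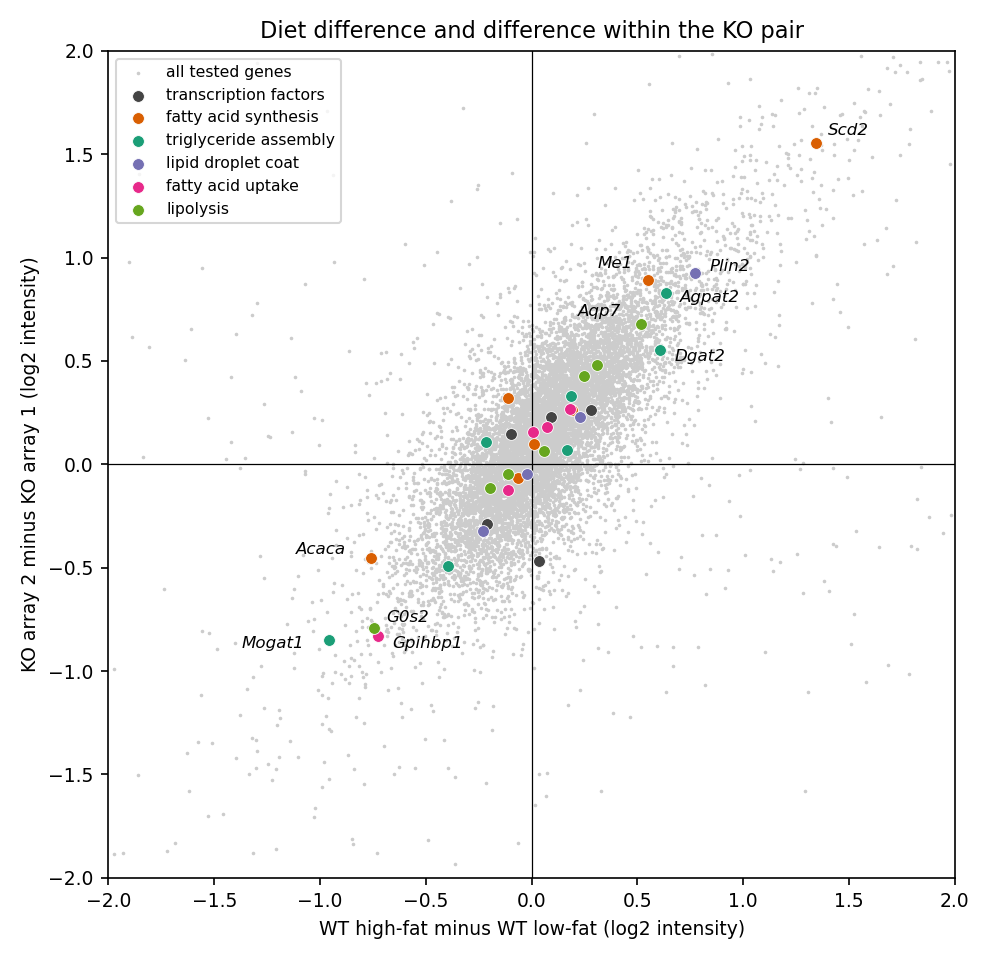
Difference between the wild type high-fat and low-fat arrays (log2, horizontal) against the difference between KO array 2 and KO array 1 (log2, vertical), for all tested genes (grey) and the members (coloured by role). The members lie along the rising diagonal, from Mogat1 at the lower left to Scd2 at the upper right. Axes end at 2 in each direction, which leaves 129 grey genes outside.

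Other genes around the pathway were read from 5 lists. As background for the list and marker counts below, 7.72% of all tested genes were higher and 3.82% lower on WT high-fat. On KO array 2 against KO array 1 those shares were 14.8% and 4.45%. Among 8 tested genes of citrate export and NADPH supply, 0 passed the test for KO against wild type, 2 were at least 1.5-fold higher on WT high-fat and 3 on KO array 2 than on KO array 1, and 0 were lower in either. Pgd, of the pentose phosphate pathway, was at 10.07 on KO array 1, 11.26 on KO array 2, 11.22 on WT high-fat and 10.43 on WT low-fat. Slc25a10, the mitochondrial dicarboxylate carrier, was at 9.98 on KO array 1, 10.96 on KO array 2, 11.06 on WT high-fat and 10.14 on WT low-fat. Acss2, which makes acetyl-CoA from acetate, differed by 0.82 between the KO arrays. The list medians were 0.29 for the diets and 0.48 for the KO pair.

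Among 15 tested desaturases, elongases and regulators of fat synthesis, 0 passed the test, 1 was higher and 2 were lower on WT high-fat, and 2 were higher and 3 lower on KO array 2 than on KO array 1. Insig1, a sterol-regulated brake on SREBP processing, was at 10.29 on KO array 1, 11.68 on KO array 2, 11.59 on WT high-fat and 10.64 on WT low-fat. Fads2, the delta-6 desaturase of polyunsaturated fatty acids, was at 11.15 on KO array 1, 9.33 on KO array 2, 9.10 on WT high-fat and 9.95 on WT low-fat, highest on KO array 1. Fads1, the delta-5 desaturase, differed by −0.73 between the KO arrays, Klf15, a glucocorticoid-responsive factor, by −0.84, and the elongase gene Elovl1 by 0.64. Acacb, acetyl-CoA carboxylase 2, differed by −0.63 between the diets, the same sign as Acaca.

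Of 13 other tested genes of triglyceride assembly, 0 passed the test, and 2 were higher and 0 lower on WT high-fat. Gpd1, which makes glycerol 3-phosphate, was at 10.93 on KO array 1, 12.19 on KO array 2, 12.25 on WT high-fat and 11.30 on WT low-fat. Mogat2, a relative of Mogat1, was at 6.35 on KO array 1, 7.31 on KO array 2, 7.60 on WT high-fat and 6.89 on WT low-fat, higher on the arrays where Mogat1 was lower. Between the KO arrays 3 were higher and 1 lower on KO array 2, with Agpat5 at a difference of 0.65 and Gpat4 at −0.60 beside Gpd1 and Mogat2. Of 11 other droplet proteins tested, 0 passed the test. On WT high-fat 1 was higher, Cideb at 0.81, and 1 lower, Cidea at −0.69, and both are relatives of Cidec. On KO array 2 against KO array 1, Cideb at 0.73 and the seipin gene Bscl2 at 0.63 were higher and Cidea at −0.78 lower. Of 11 tested genes that control lipolysis, 0 passed the test, 0 were apart between the diets, and 1 was lower on KO array 2, the carboxylesterase gene Ces1d at −0.64.

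**Figure D4:**
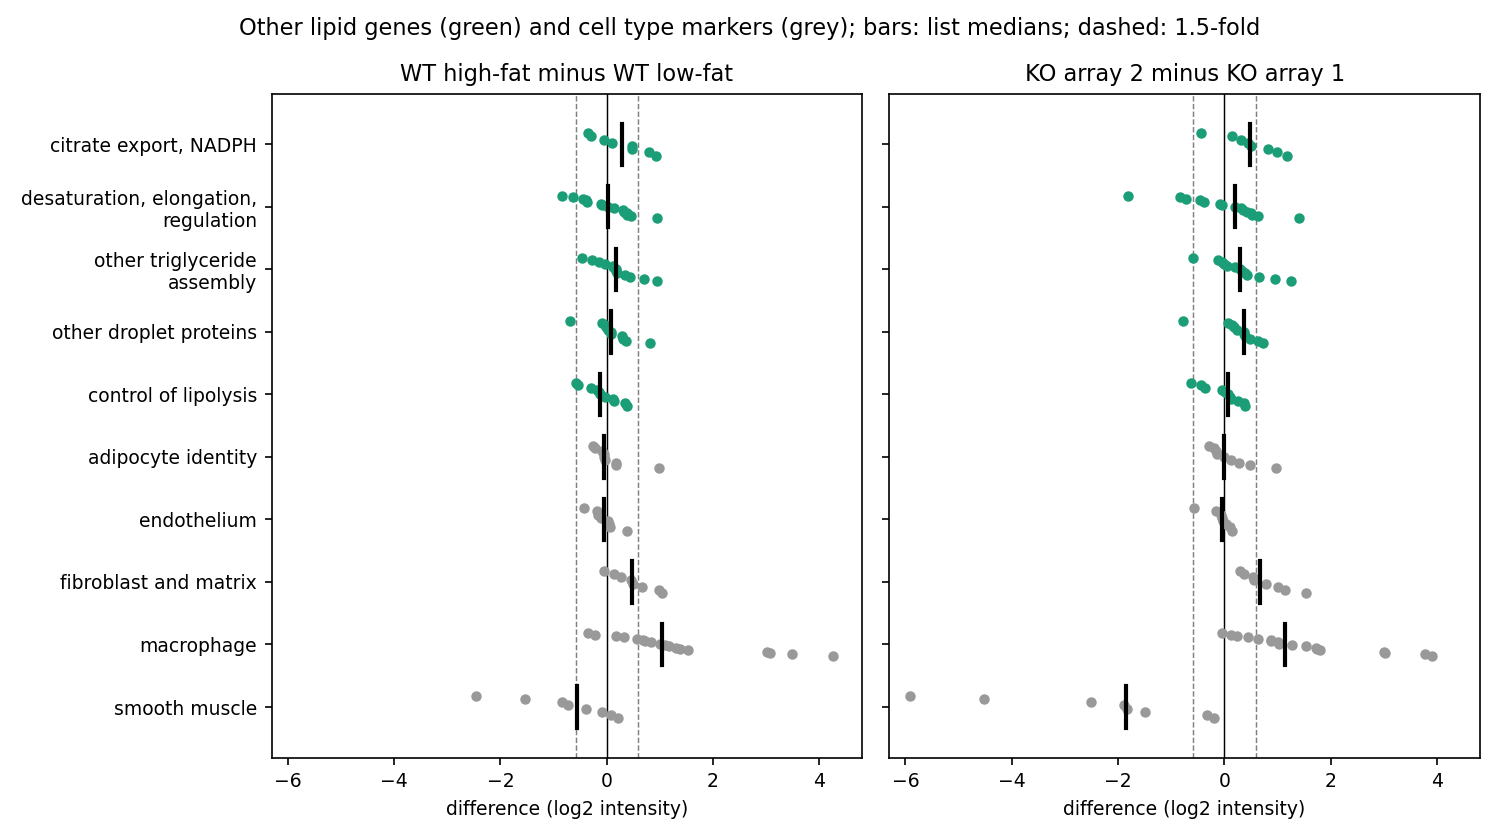
Differences (log2, horizontal) of other lipid genes (green) and of 5 lists of cell type markers (grey) between the diets (left panel) and between the KO arrays (right panel), 1 point a gene. Black bars are list medians, and dashed lines mark 1.5-fold. The macrophage medians, 1.05 and 1.14, lie to the right of all lipid lists, and the smooth muscle median, −1.86 in the KO pair, to the left.

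Markers of other cells also differed between the arrays. Of 18 macrophage markers, 13 were at least 1.5-fold higher on WT high-fat and 14 on KO array 2 than on KO array 1, and 0 were lower. Their summed intensity was 9295 on KO array 1 and 22465 on KO array 2, against 26507 on WT high-fat and 12147 on WT low-fat. The differences between the KO arrays ran from −0.05 for Cd163 to 3.90 for Mmp12. Plin2, Lpl, Fabp4 and Cd36 are also transcribed in macrophages. Of 8 fibroblast and matrix markers, 3 were higher on WT high-fat and 4 on KO array 2, from 0.29 for Dcn to 1.54 for Lum in the KO pair. Of 8 smooth muscle markers, 4 were lower on WT high-fat and 6 on KO array 2, from −5.91 for Cnn1 to −0.20 for Acta2 in the KO pair, and their summed intensity was 11180 on KO array 1 and 4950 on KO array 2, against 5258 on WT high-fat and 5484 on WT low-fat.

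The epididymal markers set the WT low-fat array apart from the others. The summed intensity of the 11 tested epididymal markers was 820 on KO array 1 and 2610 on KO array 2, against 208 on WT high-fat and 17101 on WT low-fat. Of these 11 markers, 4 passed the test as lower in KO. Within the KO pair they ran from −2.36 for Spink11 to 5.04 for Adam7. Of 6 mesothelial markers, 3 were higher and 2 lower on KO array 2, from −1.47 for Krt19 to 1.16 for Msln. Of the brown fat genes 3 of 6 were tested, and Ppargc1a and Cidea differed by −0.01 and −0.78 in the KO pair, while Ucp1 lay below the filter. Of 9 adipocyte identity markers, 1 was apart in each comparison, the leptin gene Lep, at 11.97 on KO array 1, 12.93 on KO array 2, 12.85 on WT high-fat and 11.85 on WT low-fat, and the lowest in the KO pair was the resistin gene Retn at −0.29. The summed intensity of these 9 genes was 61050 on KO array 1 and 61984 on KO array 2, against 62009 on WT high-fat and 61611 on WT low-fat.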

How the data were processed

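Epididymal adipose RNA was read on 4 arrays, grouped by their titles. The authors deposited 1 intensity per probe set, which the submitters' processing notes say came from the robust multi-array average (RMA) under R 2.15.0. A genome build was not given in the sources used. The deposited values were linear, from 5.71 to 20092, and their log2 was taken. Of 35556 probe sets, 21218 had 1 gene symbol, 1881 several and 12457 none listed. Per gene the probe set with the highest mean was kept, and genes with a mean level of at least 5.45, the 40th percentile, were tested.

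KO was compared with wild type in limma 3.58.1 (R 4.3.3), with 3 group means, eBayes without trend, two-sided, Benjamini-Hochberg adjustment over 11292 genes and a threshold of 0.05. Only the KO pair gave a residual degree of freedom (1), to which eBayes added 4.62 prior ones, and each single WT array was taken to vary as the KO pair did. The number of arrays limits the precision. The fit was tested on simulated data. Other comparisons were described by size at 1.5-fold.

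The members and lists were chosen with earlier results of these data known. All members were named; other pathway genes were named where at least 1.5-fold apart (at most the 4 largest each way), and cell markers by their highest and lowest difference within the KO pair. Adipoq and Ucp1 were named outside that rule. Alternatives covered the filter, probe set rule, scaling, variance model, thresholds and each KO array left out. Promoters came from RefSeq (GRCm38.p6), and the platform annotation gave gene names. Figures used matplotlib 3.10.9 in Python 3.11.15.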

Additional observations from a re-analysis of the deposited data

How the results depend on the processing

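No member passed the test for KO against wild type under any alternative run for it (filter, probe set rule, scaling, variance model, and a threshold of 0.10). The count over all genes was 5 as reported, 0 without the low-signal filter, 2 with the filter at the 60th percentile, and 3 with the mean of a gene's probe sets as well as after quantile normalization; the cause was not tested. Members at least 1.5-fold from WT low-fat on both KO arrays numbered 0; leaving out KO array 1 or KO array 2 gave between 0 and 7, with 7 on KO array 2 alone. At 1.3-fold the count was 2, and 14 members were apart between the KO arrays, against 8 at 1.5-fold. At 2-fold, 1 member was apart between the diets and 1 between the KO arrays, Scd2 in both. Shares of all tested genes at 1.3-fold and 2-fold are not given here, so these counts have no background beside them. The counts of members 1.5-fold apart between the diets and between the KO arrays lay between 7 and 9, and that on both KO arrays against WT low-fat was 0, under the filter, probe set and scaling alternatives. After centring each array on its median, 10 of 35 mean KO differences, 3 diet differences and 2 differences within the KO pair changed sign, and 0 of those at 1.5-fold did. Between the diet difference and that within the KO pair, members with the same sign numbered 31 as reported, 29 after quantile normalization and 28 after centring, both chosen after seeing the data, and r was 0.95 after quantile normalization. No share of all tested genes is given under those scalings.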
